A study of Mus musculus with 10 samples.

Results

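The third week of culture was described by setting mouse spermatogonial stem cells cultured for 3 weeks against the same kind of cells cultured for 2 weeks. The members are the 4 RNA-seq libraries whose labels give these times, 2 at week 3 and 2 at week 2, of 10 libraries in the series. Both groups were cells of DBA/2 mice, an inbred strain, and no transgene, deletion or drug is named for either. They began as adult testis cells picked out with magnetic beads against the surface protein CD9. Cells of both groups were grown in a medium built on Iscove's modified MEM with human FGF2, rat GDNF and fetal bovine serum, so neither group is a control without growth factors. The series also holds freshly sorted cells (week 0), cells at week 1 and established GS cells, which are long-term cultures of spermatogonial stem cells. Neither the age of the mice, nor whether animals were pooled, nor whether feeder cells were present is given in the sources used here, and nothing says that the replicates are separate cultures. The p-values thus reflect only how far libraries of the same group scatter, and that scatter may be technical. It was estimated over all 10 libraries and not over weeks 2 and 3 alone. In bulk RNA, fewer cells of a type and less RNA per cell cannot be told apart.

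Spermatogonial stem cells sustain sperm production by dividing into more stem cells or into progenitors that differentiate towards meiosis. GDNF, acting through the receptor RET and its partner GFRA1, and FGF2 drive self-renewal in culture, and both act partly through the MAP kinase cascade, which switches on immediate early genes and its own feedback inhibitors. Retinoic acid moves progenitors towards differentiation, with Stra8 as its best known target. ATF4 is a transcription factor of the integrated stress response, which raises genes for amino acid uptake, amino acid synthesis and the charging of tRNA when amino acids are short or protein folding is disturbed.

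Values are the authors' normalized FPKM. FPKM scale the fragments of a gene by its transcript length and the mapped fragments of the library. What further normalization these values had is not stated. Each fold change is week 3 over week 2, was estimated with limma on log2(FPKM + 1), and so understates the change of genes with low FPKM. A bare number in brackets after a gene's FPKM is its log2 fold change. Genes counted as called had an adjusted p below 0.05 (Benjamini-Hochberg over all genes tested, two-sided). Where the libraries of a gene are said not to overlap between weeks, this describes its values and is no further test. The share of all genes that separate so was not counted, and the genes named were mostly picked for large called changes. Their separation thus adds no support to the calls. Of 21969 genes in the matrix, 12737 had an FPKM of at least 1 in at least 2 of the 4 libraries and were tested, and 9232 were not. Exoc3l2 lay just inside this limit with 1.07 and 0.945 at week 3, against 0.677 and 1.0 at week 2, and Rnase12 just outside with 1.0 and 1.08 at week 3, against 0.188 and 0.216 at week 2, the first of these being 0.999969 before rounding. Of the genes tested, 11676 were at FPKM 1 or more in all 4 libraries. A further 239 reached it in both week 3 libraries and neither week 2 library, and 231 in both week 2 libraries and neither week 3 library.

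Depth, read from the steps in low FPKM values, came to 14.56 M (megareads) and 18.88 M at week 3, against 15.48 M and 13.42 M at week 2, and ran between 10.36 M and 21.06 M over the 10 libraries. It is the depth that the FPKM imply, and differs from the mapped reads if libraries were normalized to each other. An FPKM of 1 for a transcript of 2200 nucleotides then stood for 29.1 and 37.8 reads at week 3 and 31.0 and 26.8 reads at week 2. Replicates correlated across genes at r = 0.988 at week 3 and 0.991 at week 2, and libraries of different weeks at 0.957 to 0.963, where genes are not independent replicates. The cells carried markers of germ cells, and genes of spermatogonia are given further below. Ddx4, an RNA helicase of germ cells, had 156 and 144 FPKM at week 3, against 102 and 101 FPKM at week 2. Dazl, an RNA-binding protein of germ cells, had 454 and 581 FPKM at week 3, against 479.7 and 460.1 FPKM at week 2. Beta globin (Hbb-bs) was listed at 0 in all 4 libraries, and the Leydig cell hormone Insl3 and the spermatocyte enzyme Pgk2 were at most 0.235 and 0.145 FPKM. The protamines Prm1 and Prm2 of spermatids were listed at 0 in 3 of the 4 libraries and were under 1 FPKM in week 3 replicate 1. Tnp2, Acrv1, Cyp17a1 and Hsd3b1 were also under 1 FPKM. Other markers of these cell types were present. Tnp1 of spermatids had 5.54 and 5.62 FPKM at week 3, against 6.57 and 5.99 FPKM at week 2. Star of Leydig cells had 2.92 and 8.50 FPKM at week 3, against 3.91 and 2.96 FPKM at week 2. Sycp1 and Sycp3 of spermatocytes were at 34.5 FPKM or more in all 4 libraries. Markers of fibroblasts were present in every library and their sum was lower in week 3 replicate 1 than in the other 3. Col3a1, a fibrillar collagen, had 49.8 and 181 FPKM at week 3, against 158 and 186 FPKM at week 2, and Tagln of smooth muscle had 8.60 and 49.9 FPKM at week 3, against 42.1 and 29.0 FPKM at week 2. The summed FPKM of the 28 fibroblast and matrix genes with a row was 629.7 and 1220.0 at week 3, against 1301 and 1337 at week 2.

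Between week 2 and week 3, 3498 genes were called, 27.5% of those tested, with 1737 higher (13.6%) and 1761 lower (13.8%) at week 3. The counts of calls given below for each list are to be read against these shares. At least 2-fold changes numbered 722 (5.67%), of which 324 were higher (2.54%) and 398 lower (3.12%). The median log2 fold change of all genes tested was 0.013, and 90% of genes lay between -0.86 and 0.78. Fewer genes were called with 1 library left out: 989 higher and 1068 lower without week 3 replicate 1, 1139 and 1387 without week 3 replicate 2, 860 and 967 without week 2 replicate 1, and 875 and 911 without week 2 replicate 2. In such a fit the lone library of its week is assumed to vary as the other groups do.

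**Figure D1:**
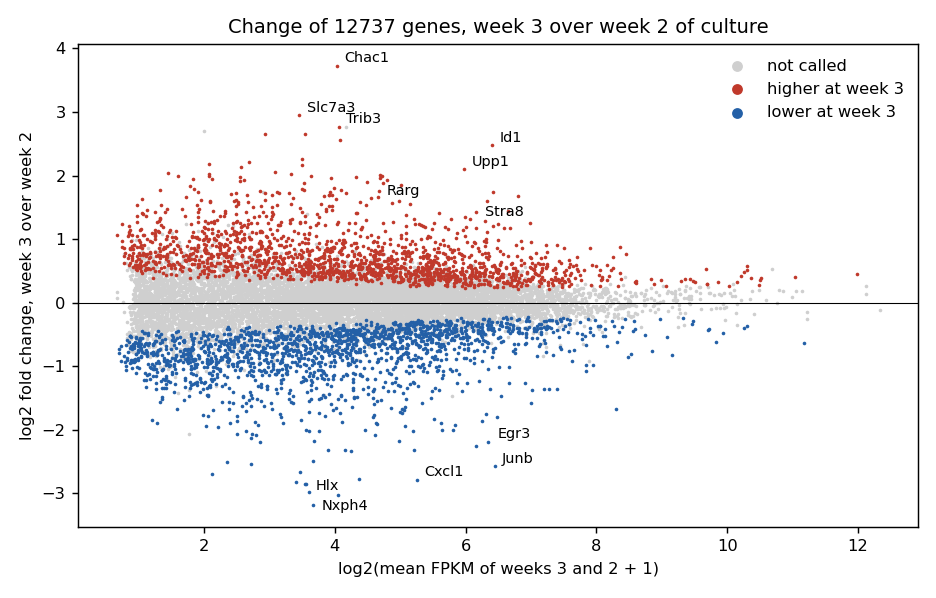
Log2 fold change of each of the 12737 genes tested, week 3 over week 2 (vertical axis, on the log2(FPKM + 1) scale), against the log2 of the mean FPKM of the 4 libraries plus 1. Red points are the 1737 genes called higher at week 3 and blue points the 1761 called lower, with Chac1, Slc7a3 and Trib3 at the top and Nxph4 and Hlx at the bottom.

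The largest log2 fold change on the log2(FPKM + 1) scale was that of Chac1, which encodes an enzyme that breaks down glutathione and is a known target of ATF4. It had 26.8 and 32.4 FPKM at week 3, against 1.17 and 1.45 FPKM at week 2 (log2 fold change 3.72, SE 0.15, adjusted p = 1.58e-05). Both week 3 libraries lay far above both week 2 libraries. Its rank depends on the scale. The ratio of mean FPKM was 22.6 for Chac1 and 29.98 for Sp7, which rests mostly on week 3 replicate 2, and was higher still for Stc2. At a pseudocount of 0.1 the log2 fold change was 4.40 for Chac1 and 4.41 for Stc2. Slc7a3, a transporter of arginine and lysine, had 15.8 and 21.2 FPKM at week 3, against 1.23 and 1.81 FPKM at week 2 (log2 fold change 2.95, SE 0.37, adjusted p = 0.000851). Trib3, a pseudokinase induced with ATF4, had 26.4 and 29.7 FPKM at week 3, against 3.08 and 3.46 FPKM at week 2 (log2 fold change 2.76, SE 0.19, adjusted p = 4.58e-05). These 3 genes belong to a list of ATF4 response genes, 30 of which were tested. Of these 21 rose (70.0%, against 13.6% of all genes tested) and 1 fell, with a median log2 fold change of 1.0, against 0.013 for all genes tested. Leaving out any 1 library left 19 to 20 of them higher.

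The members that rose covered several steps of amino acid supply. Among the transporters, Slc1a4, which carries alanine, serine and cysteine, had 15.1 and 15.1 FPKM at week 3, against 2.72 and 3.18 FPKM at week 2 (log2 fold change 2.03). Slc6a9, a glycine transporter, had 46.9 and 51.5 FPKM at week 3, against 9.09 and 18 FPKM at week 2 (1.86) and had the wider spread at week 2, and its exons overlap those of Ccdc24 on the opposite strand. Slc7a1, a carrier of cationic amino acids, had 48.9 and 60.4 FPKM at week 3, against 20.9 and 24.7 FPKM at week 2 (1.22). Slc7a11, which imports cystine, was low throughout with 2.68 and 2.2 FPKM at week 3, against 0.329 and 0.529 FPKM at week 2 (1.27). The leucine carrier Slc7a5 did not pass the test, with 162 and 183 FPKM at week 3, against 161 and 161 FPKM at week 2 (adjusted p = 0.436).

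Among the enzymes, asparagine synthetase (Asns) had 121 and 139.8 FPKM at week 3, against 40.0 and 36.7 FPKM at week 2 (log2 fold change 1.74, SE 0.19, adjusted p = 0.000470). Psat1, which acts in serine synthesis, had 162 and 176 FPKM at week 3, against 58.1 and 47.2 FPKM at week 2 (log2 fold change 1.67, SE 0.12, adjusted p = 5.19e-05). Psph, the last enzyme of that route, had 51.6 and 62.9 FPKM at week 3, against 28.6 and 25.6 FPKM at week 2 (log2 fold change 1.05). Phgdh, the first enzyme of the same route, changed less, with 118 and 103 FPKM at week 3, against 85.3 and 88.6 FPKM at week 2 (0.34), and its call was lost without week 3 replicate 1 (adjusted p = 0.177), without week 2 replicate 1 (adjusted p = 0.15) and without week 2 replicate 2 (adjusted p = 0.10). Pycr1, an enzyme of proline synthesis, had 8.60 and 8.55 FPKM at week 3, against 2.28 and 2.15 FPKM at week 2 (1.58). In the mitochondrial folate pathway, Mthfd2 had 103 and 106 FPKM at week 3, against 49.3 and 54.4 FPKM at week 2 (1.0). Stc2, a secreted glycoprotein, was under 0.1 FPKM in both week 2 libraries, with 3.22 and 3.53 at week 3, against 0.0345 and 0.0994 at week 2, and its log2 fold change was 2.04, or 4.41 with a pseudocount of 0.1. Both libraries of week 3 were above both of week 2 for every gene of this paragraph.

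Atf4 itself had 188 and 203 FPKM at week 3, against 101 and 106 FPKM at week 2 (log2 fold change 0.91, SE 0.079, adjusted p = 0.000145). Ddit3, which encodes the stress factor CHOP, had 39.2 and 45 FPKM at week 3, against 30.7 and 30.2 FPKM at week 2 (0.45), and its call was lost in each fit that left out a library, with adjusted p between 0.0597 and 0.175. Ppp1r15a, which restores translation after stress, was the member that fell (-0.40), a call lost without week 3 replicate 2 (adjusted p = 0.0660), without week 2 replicate 1 (adjusted p = 0.0539) and without week 2 replicate 2 (adjusted p = 0.0838). Sesn2, a stress-induced regulator of growth signalling, had 38.0 and 36.6 FPKM at week 3, against 17.9 and 18.3 FPKM at week 2 (log2 fold change 1.0). Upp1, a uridine phosphorylase outside the list, had 99.8 and 103 FPKM at week 3, against 25.6 and 20.4 FPKM at week 2 (2.1). Over the whole series Chac1 and Asns were higher at week 1 than at week 2, and lower in GS cells than at week 3. Chac1 averaged 1.90, 14.4, 1.31 and 29.6 FPKM at weeks 0, 1, 2 and 3 and 7.37 FPKM in GS cells, and Asns 49.2, 58.5, 38.3 and 130.3 FPKM at weeks 0, 1, 2 and 3 and 55.4 FPKM in GS cells. Atf4 averaged 68.6, 197, 103 and 196 FPKM at weeks 0, 1, 2 and 3 and 179 FPKM in GS cells.

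**Figure D2:**
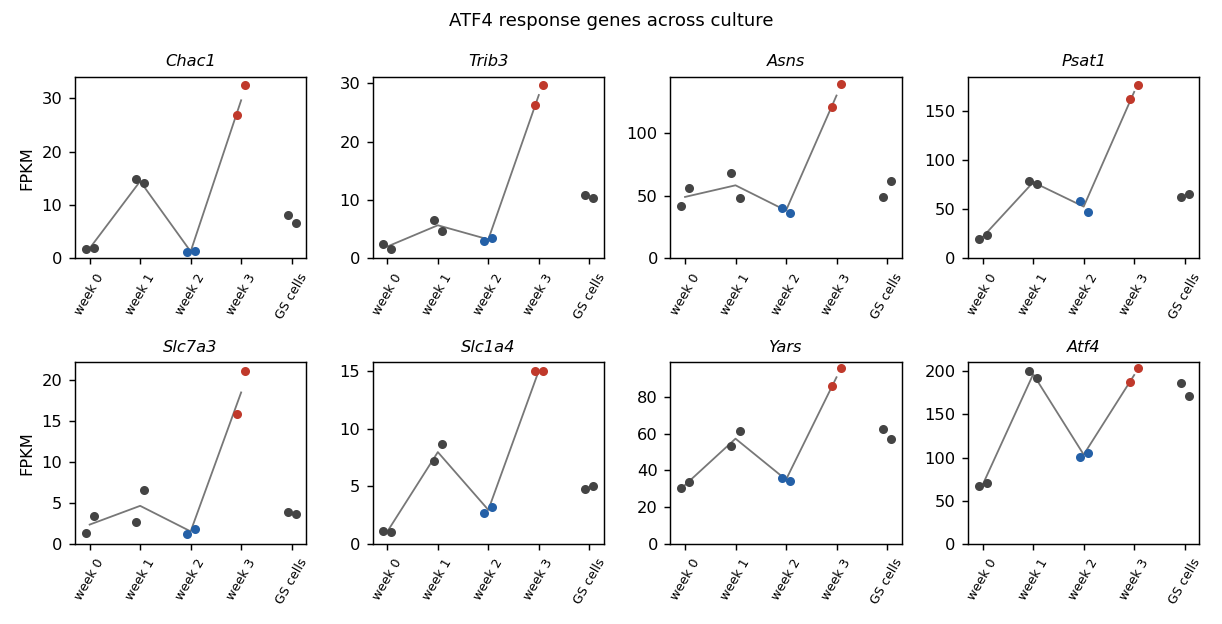
FPKM of 8 genes in each of the 10 libraries, 2 per group, with a line through the means of weeks 0 to 3 and GS cells set apart at the right. The red week 3 points are above the blue week 2 points for each gene, and for every gene but Atf4 both are also above the other 8 libraries.

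The promoters of these genes are shown because ATF4 binds a composite element whose core letters are TGATGNAA, and the members rose together. RefSeq windows of GRCm38.p6, from 250 bases before to 50 bases after the annotated start, were searched for these letters on both strands, and a match on the other strand reads as its reverse complement. Of the 21 ATF4 response genes called higher 20 had a window, and 7 of them (35.0%) held a match, namely Chac1, Trib3, Asns, Slc1a4, Pycr1, Slc7a11 and Fgf21. The share was 2.59% among 10163 tested genes with a window and 3.97% among all 32851 windows. A match is a description of letters and not a bound site. The list is one of ATF4 response genes, and no share was taken for members that were not called. The higher share may thus belong to the list and says nothing of week 3. The windows below were picked among those that hold the letters. In them the match is in capitals, 5′ to 3′ on the strand of the gene. The positions that follow count the first base of the match from the start site, which is 0. Chac1 lies on the plus strand (chr2:119350992-119351291) with its match at -193. Trib3 lies on the minus strand (chr2:152344011-152344310) with its match at 14. Slc1a4 is on the minus strand (chr11:20332664-20332963) with its match at -4. Yars and Aars encode the tRNA synthetases of tyrosine and alanine, both on the plus strand. Yars (chr4:129189653-129189952) had its match at 3, and Aars (chr8:111033592-111033891) had a match at -112 and another at 9.
Chac1: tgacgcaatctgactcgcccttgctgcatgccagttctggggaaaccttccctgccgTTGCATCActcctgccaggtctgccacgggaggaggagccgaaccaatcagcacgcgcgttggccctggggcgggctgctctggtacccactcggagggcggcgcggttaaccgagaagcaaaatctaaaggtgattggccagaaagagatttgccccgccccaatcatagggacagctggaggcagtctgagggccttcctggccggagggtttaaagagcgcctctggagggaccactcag
Trib3: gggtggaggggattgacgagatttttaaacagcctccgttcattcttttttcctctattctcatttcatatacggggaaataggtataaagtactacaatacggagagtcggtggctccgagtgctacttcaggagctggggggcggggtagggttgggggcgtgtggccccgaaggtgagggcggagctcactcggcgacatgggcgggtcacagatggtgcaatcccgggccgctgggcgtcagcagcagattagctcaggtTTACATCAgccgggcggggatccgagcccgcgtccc
Slc1a4: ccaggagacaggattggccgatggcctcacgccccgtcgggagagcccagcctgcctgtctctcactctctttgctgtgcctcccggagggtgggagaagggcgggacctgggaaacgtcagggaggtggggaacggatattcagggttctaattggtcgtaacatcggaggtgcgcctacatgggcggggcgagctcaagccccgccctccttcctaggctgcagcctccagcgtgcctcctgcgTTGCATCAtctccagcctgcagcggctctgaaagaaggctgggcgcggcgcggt
Yars: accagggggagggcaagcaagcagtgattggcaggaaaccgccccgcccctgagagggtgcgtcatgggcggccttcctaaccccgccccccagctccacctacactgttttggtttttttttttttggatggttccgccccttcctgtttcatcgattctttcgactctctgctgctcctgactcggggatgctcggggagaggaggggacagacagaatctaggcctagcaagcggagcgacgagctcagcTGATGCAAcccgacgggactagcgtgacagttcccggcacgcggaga
Aars: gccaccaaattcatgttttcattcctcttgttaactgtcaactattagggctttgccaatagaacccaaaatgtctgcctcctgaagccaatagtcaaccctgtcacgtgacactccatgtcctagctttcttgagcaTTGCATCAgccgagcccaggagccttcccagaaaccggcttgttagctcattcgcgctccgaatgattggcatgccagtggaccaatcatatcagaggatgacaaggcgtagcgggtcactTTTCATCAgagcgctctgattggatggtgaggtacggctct

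The aminoacyl-tRNA synthetases, the enzymes that load amino acids onto tRNA in the cytosol, moved the same way. Of 20 tested, 12 rose and 0 fell (12 and 0 at an unadjusted p under 0.05), with a median log2 fold change of 0.48, and 9 to 10 rose with any 1 library left out. Yars had 85.9 and 95.4 FPKM at week 3, against 35.8 and 34.0 FPKM at week 2 (log2 fold change 1.35, SE 0.11, adjusted p = 8.97e-05), and its exons overlap C77080 on the opposite strand. Aars had 137 and 144 FPKM at week 3, against 60.9 and 62.8 FPKM at week 2 (1.17), but its exons overlap those of Exosc6 on the same strand, so reads may be shared. Nars, for asparagine, had 124 and 128 FPKM at week 3, against 54.1 and 51.9 FPKM at week 2 (1.23), and Cars, for cysteine, had 119 and 118 FPKM at week 3, against 52.8 and 49.4 FPKM at week 2 (1.20). In all 4 of these the lowest week 3 library was above the highest week 2 library. Gars, Tars and Iars, for glycine, threonine and isoleucine, also rose (0.54, 0.60 and 0.91). The 8 that were not called (Farsa, Farsb, Rars, Qars, Dars, Vars, Kars and Hars) had log2 fold changes between -0.15 and 0.17. The sequence TGATGNAA stood in 5 of the 8 windows of the synthetases that rose (62.5%), those of Yars, Aars, Gars, Tars and Iars. Wars, Lars, Cars and Nars rose too but had no window and were not searched. No share was taken for the synthetases that were not called.

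**Figure D3:**
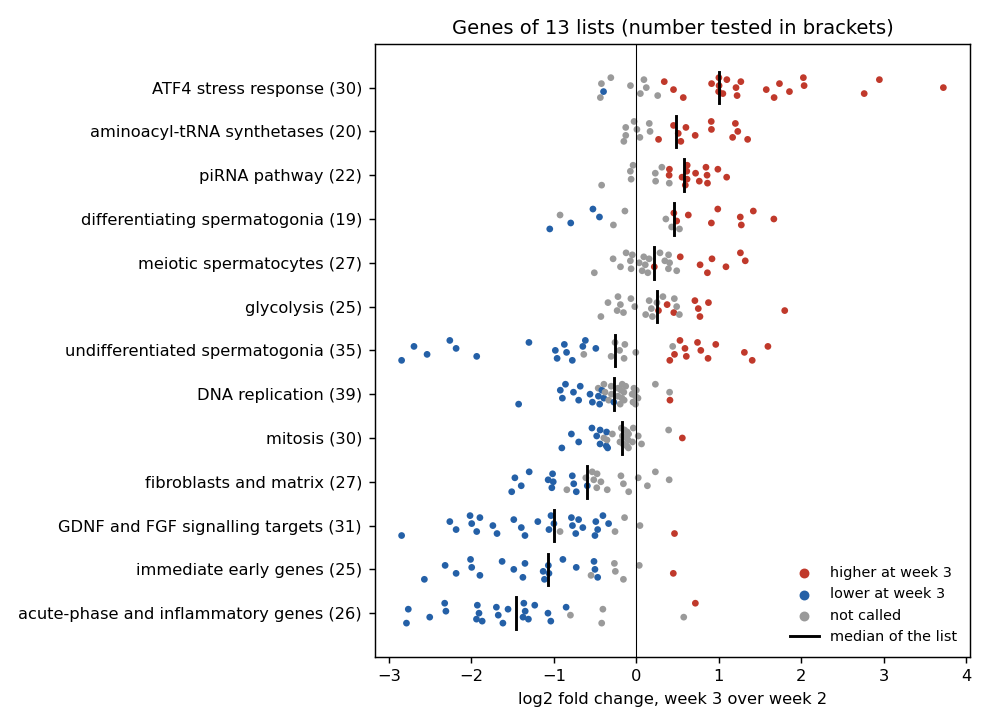
Log2 fold change, week 3 over week 2, of each tested gene of 13 lists, with the number tested in brackets and the median as a black bar. The ATF4 response genes have the highest median (1.0), and the acute-phase and inflammatory genes (-1.47), immediate early genes (-1.07) and GDNF and FGF signalling targets (-1.0) the lowest.

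The targets of GDNF and FGF signalling fell. Of 31 such genes tested, 26 fell (83.9%, against 13.8% of all genes tested) and 1 rose, with a median log2 fold change of -1.0, and 20 to 22 fell with any 1 library left out. The summed FPKM of the list was 890.3 and 863 at week 3, against 1841 and 1878 at week 2. The transcription factor genes that GDNF is known to induce in spermatogonial stem cells were among those with the largest changes. Bcl6b (chr11:70224128-70229798 in GENCODE M21, GRCm38) had 24.9 and 22.6 FPKM at week 3, against 115 and 121 FPKM at week 2 (log2 fold change -2.26, SE 0.13, adjusted p = 2.75e-05). Lhx1 had 12.7 and 13.1 FPKM at week 3, against 47.4 and 57.4 FPKM at week 2 (log2 fold change -1.94, SE 0.14, adjusted p = 6.83e-05). T (brachyury) had 2.06 and 1.68 FPKM at week 3, against 18.8 and 20.4 FPKM at week 2 (log2 fold change -2.85, SE 0.22, adjusted p = 8.85e-05). For each of these both week 3 libraries lay below both week 2 libraries. Etv5, another such factor, did not pass the test, with 39.5 and 45.7 at week 3, against 45.2 and 57.5 at week 2 (log2 fold change -0.26, adjusted p = 0.208), and the ranges of the 2 weeks overlap. Its relative Etv4 had 40.6 and 35.1 FPKM at week 3, against 65.7 and 61.3 FPKM at week 2 (-0.74), a call lost without week 3 replicate 2 (adjusted p = 0.0800), without week 2 replicate 1 (adjusted p = 0.0813) and without week 2 replicate 2 (adjusted p = 0.0563). The member that rose was Id4, an inhibitor of helix-loop-helix factors that marks stem cells, with 17.2 and 14.7 at week 3, against 11.1 and 11.4 at week 2 (0.46). Its call was lost without week 3 replicate 1 (adjusted p = 0.121), without week 2 replicate 1 (adjusted p = 0.0998) and without week 2 replicate 2 (adjusted p = 0.0817).

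Feedback inhibitors of the MAP kinase cascade, which are themselves switched on by it, were lower as well. Spry4 had 13 and 12.4 FPKM at week 3, against 30.2 and 30.5 FPKM at week 2 (log2 fold change -1.20, SE 0.10, adjusted p = 0.000147), and the phosphatase Dusp4 had 6.01 and 7.72 FPKM at week 3, against 25.4 and 24.9 FPKM at week 2 (log2 fold change -1.74, SE 0.12, adjusted p = 4.6e-05). Dusp6, a phosphatase of ERK, fell less, with 57.9 and 62.3 FPKM at week 3, against 97.7 and 98.6 FPKM at week 2 (log2 fold change -0.70). Ccnd1, the cyclin that couples growth factors to the cell cycle, had 12.7 and 14.3 FPKM at week 3, against 59.3 and 56.0 FPKM at week 2 (log2 fold change -2.02, SE 0.20, adjusted p = 0.000267), and its exons overlap a gene on the opposite strand. The 3 Spred genes (Spred1, Spred2 and Spred3) fell by 0.34, 0.77 and 1.04 on the log2 scale, the first a call lost with any 1 library left out at adjusted p between 0.0748 and 0.223, and Spry1 and Spry2 fell by 0.79 and 1.0. Time did not move all of these alike. Bcl6b averaged 2.42, 69.9, 118 and 23.7 FPKM at weeks 0, 1, 2 and 3 and 66.7 FPKM in GS cells. Ccnd1 averaged 16.6, 219, 57.6 and 13.5 FPKM at weeks 0, 1, 2 and 3 and 22.1 FPKM in GS cells, so week 3 continued a decline that began after week 1 for Ccnd1, but not for Bcl6b, which was highest at week 2.

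**Figure D4:**
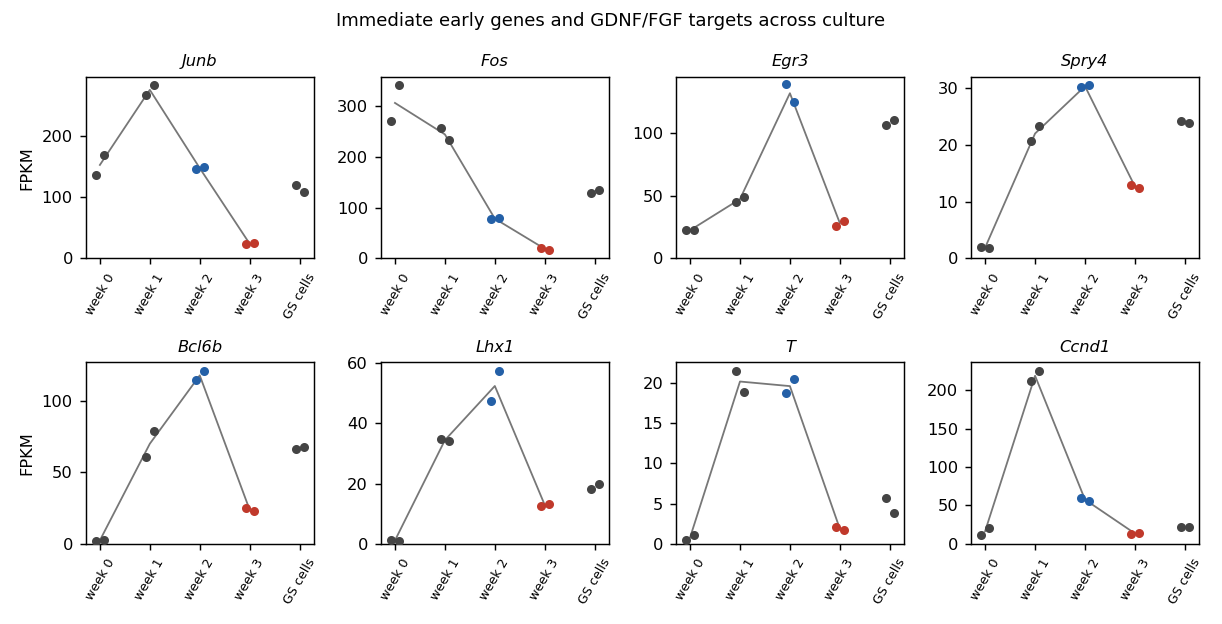
FPKM of 8 immediate early and growth factor target genes in each of the 10 libraries, 2 per group, with a line through the means of weeks 0 to 3 and GS cells set apart at the right. In each panel the red week 3 points lie below the blue week 2 points, and GS cells average above week 3 in each.

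Immediate early genes, the first transcripts made after growth factor stimulation or cell handling, fell together. Of 25 tested, 19 fell (76.0%) and 1 rose, with a median log2 fold change of -1.07, and 16 to 18 fell with any 1 library left out. Of the 25, 8 also stand in the list of GDNF and FGF targets. Of the other 17, 11 fell and 1 rose, with a median of -0.89. Junb, a subunit of the AP-1 factor (chr8:84974484-84978718), had 23.1 and 25 FPKM at week 3, against 146 and 150.1 FPKM at week 2 (log2 fold change -2.57, SE 0.11, adjusted p = 1.58e-05), and its exons overlap Prdx2 on the opposite strand. Its AP-1 partners Fosb and Fos fell too. Fosb had 3.91 and 4.03 FPKM at week 3, against 24.3 and 23.4 FPKM at week 2 (-2.32) and Fos had 20.6 and 17.4 FPKM at week 3, against 78.2 and 78.9 FPKM at week 2 (-2.0). Egr3, a zinc finger factor, had 26.2 and 30.4 FPKM at week 3, against 139 and 125 FPKM at week 2 (log2 fold change -2.19, SE 0.099, adjusted p = 1.58e-05). Egr2 had 27.3 and 14 FPKM at week 3, against 74.1 and 77.4 FPKM at week 2 (-1.90), with its 2 week 3 libraries further apart than those of the others. Cyr61, a secreted matrix protein and target of YAP, had 1.17 and 1.84 FPKM at week 3, against 9.27 and 8.75 FPKM at week 2 (-2.01). In every one of these 6 genes the groups did not overlap. Jun had 4.05 and 4.79 FPKM at week 3, against 8.92 and 9.13 FPKM at week 2 (-0.89) and Atf3, also a stress gene, did not pass the test (log2 fold change 0.036). Klf4 was the member that rose, with 49.3 and 41.9 FPKM at week 3, against 32.7 and 33.4 FPKM at week 2 (0.45), and its call was lost without week 3 replicate 1 (adjusted p = 0.137), without week 2 replicate 1 (adjusted p = 0.105) and without week 2 replicate 2 (adjusted p = 0.0885). The CArG box, to which serum response factor binds, had a match in 2 of 13 windows of the immediate early genes that fell (15.4%) and in 1.57% of the windows of tested genes. Of the 19 that fell, Egr3, Ctgf, Egr1, Ier2, Myc and Fosl1 had no window and were not searched. No share was taken for the members that did not fall. The level of Fos was lowest at week 3, with averages of 307, 245, 78.5 and 19.0 FPKM at weeks 0, 1, 2 and 3 and 132 FPKM in GS cells.

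The receptors of these growth factors showed both directions. Of 21 receptor genes tested 6 rose and 7 fell. With single libraries left out, the higher calls numbered 3 without week 2 replicate 1, and the lower calls 4 without week 3 replicate 1 and 4 without week 2 replicate 1. The GDNF receptor fell in both its subunits. Gfra1, which binds GDNF, had 26.4 and 28.1 FPKM at week 3, against 51.0 and 50.4 FPKM at week 2 (log2 fold change -0.87, SE 0.12, adjusted p = 0.00108), and Ret, the signalling kinase, had 65.3 and 59.6 FPKM at week 3, against 95.5 and 97.2 FPKM at week 2 (log2 fold change -0.62, SE 0.095, adjusted p = 0.00216). Epha2, an ephrin receptor, had 45.9 and 51.0 FPKM at week 3, against 134 and 138 FPKM at week 2 (-1.48). Gfra3, whose known ligand is artemin, had 8.06 and 6.42 FPKM at week 3, against 2.59 and 2.57 FPKM at week 2 (1.19), and the insulin-like growth factor receptor Igf1r had 82.5 and 86.5 FPKM at week 3, against 38.4 and 36.8 FPKM at week 2 (1.15). Kit, the stem cell factor receptor of differentiating spermatogonia, had 20.5 and 18.9 at week 3, against 13.1 and 15.1 at week 2 (0.46), a call lost without week 3 replicate 1 (adjusted p = 0.0861) and without week 2 replicate 1 (adjusted p = 0.114).

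Genes of undifferentiated spermatogonia did not move as a block. Of 35 tested 12 rose and 15 fell, and the median log2 fold change was -0.26. The higher calls numbered 7 without week 3 replicate 1 and 6 without week 2 replicate 1. Of the 35, 8 are shared with the GDNF and FGF targets, and of the other 27 genes 11 rose and 9 fell, with a median of -0.14. Among those that fell, Shisa6, which marks a fraction of stem cells in mice, had 0.201 and 0.128 FPKM at week 3, against 6.39 and 6.71 FPKM at week 2 (log2 fold change -2.70, SE 0.35, adjusted p = 0.000955). Plvap had 0.847 and 1.01 FPKM at week 3, against 10.3 and 10.1 FPKM at week 2 (log2 fold change -2.54, SE 0.14, adjusted p = 2.03e-05), and Eomes, a T-box factor, had 1.66 and 1.26 FPKM at week 3, against 5.14 and 4.95 FPKM at week 2 (-1.30). Nanos2, an RNA-binding protein that keeps stem cells undifferentiated, had 7.32 and 7.39 FPKM at week 3, against 12.4 and 11.8 FPKM at week 2 (-0.65), a call lost without week 2 replicate 1 (adjusted p = 0.0501). Among those that rose were genes known in progenitors. Neurog3 had 6.04 and 4.68 FPKM at week 3, against 0.627 and 1.69 FPKM at week 2 (log2 fold change 1.6, SE 0.25, adjusted p = 0.00255), and its exons overlap Fam241b on the opposite strand. Sox3 had 82.4 and 71.7 FPKM at week 3, against 30.2 and 30.6 FPKM at week 2 (log2 fold change 1.31, SE 0.11, adjusted p = 0.000122). Nanos3 had 147 and 154 FPKM at week 3, against 72.1 and 81.6 FPKM at week 2 (0.96). Zbtb16 (PLZF), a transcription factor of undifferentiated cells, had 176 and 162 FPKM at week 3, against 94.6 and 101 FPKM at week 2 (0.78), and Lin28a had 103 and 100.4 FPKM at week 3, against 64.6 and 56.7 FPKM at week 2 (0.74). The general surface markers of the culture did not pass the test. Cd9 had 118 and 106 FPKM at week 3, against 105 and 99.0 FPKM at week 2 (adjusted p = 0.282), Itga6 60.3 and 53.7 at week 3, against 58.5 and 55.8 at week 2, and Epcam 114 and 121 at week 3, against 127 and 132 at week 2.

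Several genes of differentiating spermatogonia rose. Of 19 tested 9 rose and 4 fell, with a median log2 fold change of 0.46. The lower calls numbered 2 without week 3 replicate 1 and 2 without week 2 replicate 2. Stra8, the retinoic acid target needed to enter meiosis (chr6:34920163-34939344), had 102 and 105 FPKM at week 3, against 40.5 and 35.6 FPKM at week 2 (log2 fold change 1.42, SE 0.13, adjusted p = 0.000188). Rarg, the retinoic acid receptor of differentiating spermatogonia, had 39.5 and 35.3 FPKM at week 3, against 10.8 and 11.3 FPKM at week 2 (log2 fold change 1.67, SE 0.13, adjusted p = 8.01e-05). Sohlh1, a helix-loop-helix factor of differentiation, had 175 and 181 FPKM at week 3, against 72.0 and 75.5 FPKM at week 2 (log2 fold change 1.26, SE 0.11, adjusted p = 0.000122). Its partner Sohlh2 went the other way, with 53.4 and 50.3 FPKM at week 3, against 109 and 108 FPKM at week 2 (log2 fold change -1.05, SE 0.092, adjusted p = 0.000149). Lmo1, a LIM domain protein, had 23.3 and 21.3 FPKM at week 3, against 9.59 and 7.77 FPKM at week 2 (1.27). In each of these 5 genes the libraries of the 2 weeks did not overlap. Stra8 averaged 52.2, 17.2, 38.0 and 103 FPKM at weeks 0, 1, 2 and 3 and 59.8 FPKM in GS cells, and Rarg 9.20, 15.1, 11.1 and 37.4 FPKM at weeks 0, 1, 2 and 3 and 32.0 FPKM in GS cells. Over the 17 tested genes of retinoic acid enzymes and receptors, 4 rose (23.5%) and 2 fell (11.8%), with a median of 0.04. Besides Stra8 and Rarg, the receptor Rara had 27.5 and 24.8 FPKM at week 3, against 15.1 and 15.7 FPKM at week 2 (0.73) and Aldh1a2, a retinoic acid synthesising enzyme, had a log2 fold change of 0.42, a call lost without week 3 replicate 1 (adjusted p = 0.0536), without week 3 replicate 2 (adjusted p = 0.0504) and without week 2 replicate 1 (adjusted p = 0.0852). The 2 that fell, Dhrs3 and Rxrg, lost their calls without some libraries: Dhrs3 without week 3 replicate 2 (adjusted p = 0.0753) and without week 2 replicate 2 (adjusted p = 0.0878), and Rxrg without week 3 replicate 2 (adjusted p = 0.128), without week 2 replicate 1 (adjusted p = 0.0552) and without week 2 replicate 2 (adjusted p = 0.126).

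**Figure D5:**
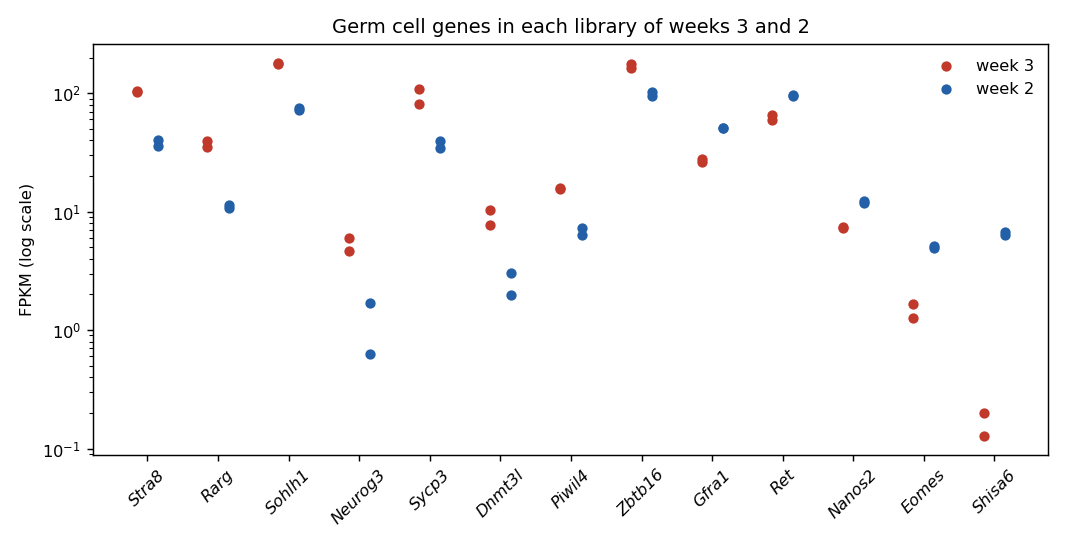
FPKM on a log axis of 13 germ cell genes in the 2 libraries of week 3 (red) and the 2 of week 2 (blue). The first 8 genes are higher at week 3, from Stra8 with 102 and 105 FPKM at week 3, against 40.5 and 35.6 FPKM at week 2, and the last 5 are lower, down to Shisa6 with 0.201 and 0.128 FPKM at week 3, against 6.39 and 6.71 FPKM at week 2.

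The piRNA pathway, which makes the small RNAs that silence transposons in germ cells, rose. Of 22 genes tested, 14 rose (63.6%) and 0 fell (17 and 0 at an unadjusted p under 0.05), with a median log2 fold change of 0.57, and 11 to 13 rose with any 1 library left out. Summed FPKM was 2002 and 1915 at week 3, against 1302 and 1314 at week 2. Piwil4 (MIWI2), the nuclear Argonaute of the pathway, had 15.8 and 15.5 FPKM at week 3, against 7.27 and 6.35 FPKM at week 2 (log2 fold change 1.10, SE 0.18, adjusted p = 0.00270). Piwil2 (MILI), its cytoplasmic partner, had 219 and 207 FPKM at week 3, against 140.2 and 137 FPKM at week 2 (log2 fold change 0.62, SE 0.073, adjusted p = 0.000624). Mael had 323 and 292 FPKM at week 3, against 169 and 169.7 FPKM at week 2 (0.86), Pld6, a mitochondrial nuclease, had 21.9 and 22.4 FPKM at week 3, against 9.98 and 11.4 FPKM at week 2 (0.99), and Henmt1, which methylates piRNA ends, had 27.5 and 22.5 FPKM at week 3, against 13.8 and 12.7 FPKM at week 2 (0.86), with exons that overlap Gm9857 on the opposite strand. All 5 were higher in both week 3 libraries. Piwil1, the meiotic Argonaute, did not pass the test (log2 fold change -0.072). Of 20 genes that mark germ cells in general 9 rose and 2 fell, 4 of the 20 being shared with the piRNA list. The higher calls numbered 5 without week 2 replicate 1, and the lower calls 1 without week 3 replicate 1, 1 without week 2 replicate 1 and 1 without week 2 replicate 2. Tex15, which is needed for silencing of transposons, had 113 and 125 FPKM at week 3, against 60.7 and 58.4 FPKM at week 2 (0.99), and Elavl2, an RNA-binding protein, fell with 32.3 and 36.2 FPKM at week 3, against 73.6 and 70.1 FPKM at week 2 (-1.05).

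Part of the meiotic programme was higher at week 3. Of 27 genes tested 8 rose and 0 fell (12 and 0 at an unadjusted p under 0.05), with a median log2 fold change of 0.22. The calls numbered 5 without week 3 replicate 1, 5 without week 2 replicate 1 and 5 without week 2 replicate 2. Sycp3, a lateral element protein of the synaptonemal complex, had 80.8 and 109 FPKM at week 3, against 39.5 and 34.5 FPKM at week 2 (log2 fold change 1.32, SE 0.14, adjusted p = 0.000364), and its exons overlap Chpt1 on the opposite strand. Prdm9, which sets recombination hotspots, had 6.56 and 6.17 FPKM at week 3, against 2.70 and 2.25 FPKM at week 2 (log2 fold change 1.09, SE 0.19, adjusted p = 0.00365). Spo11, the enzyme that makes meiotic breaks, had 6.01 and 5.06 FPKM at week 3, against 2.05 and 2.90 FPKM at week 2 (0.92), a call lost without week 3 replicate 1 (adjusted p = 0.0548) and without week 2 replicate 1 (adjusted p = 0.0619). Sycp1, a central component of the complex, did not pass the test, with 70.1 and 87.5 FPKM at week 3, against 65.2 and 54.3 FPKM at week 2 (adjusted p = 0.196). Pgk2, an enzyme of late spermatocytes, was at or near 0 in all 4 libraries. Of the 30 spermatid genes only 8 passed the filter, of which Dkkl1 rose with 21.2 and 22.9 at week 3, against 15.8 and 11.9 at week 2 and Odf2 fell with 28.5 and 30.0 at week 3, against 55.6 and 58.2 at week 2. That is 12.5% each way, near the 13.6% higher and 13.8% lower of all genes tested. The call of Dkkl1 was lost without week 2 replicate 2 (adjusted p = 0.0624), and the lower calls numbered 2 without week 3 replicate 2.

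Genes known from pluripotent and primordial germ cells moved in both directions. Of 20 pluripotency factors tested 9 rose and 4 fell, with a median log2 fold change of 0.13. The lower calls numbered 1 without week 3 replicate 1, 2 without week 2 replicate 1 and 1 without week 2 replicate 2. Mycn had 73.8 and 63.9 FPKM at week 3, against 25.3 and 25.3 FPKM at week 2 (log2 fold change 1.41, SE 0.13, adjusted p = 0.000175), and Esrrb had 4.68 and 4.30 FPKM at week 3, against 1.48 and 1.93 FPKM at week 2 (1.03). Tbx3 had 6.98 and 4.79 FPKM at week 3, against 2.37 and 1.98 FPKM at week 2 (1.10). Pou5f1 (OCT4) did not pass the test, with 50.7 and 47.9 FPKM at week 3, against 58.4 and 55.4 FPKM at week 2 (adjusted p = 0.27). Among 18 genes of DNA methylation 4 rose (22.2%) and 3 fell (16.7%). Dnmt3l, the cofactor of new methylation in germ cells, had 10.3 and 7.65 FPKM at week 3, against 1.99 and 3.05 FPKM at week 2 (log2 fold change 1.51, SE 0.21, adjusted p = 0.00136), with exons that overlap Aire on the opposite strand. Tet3, which oxidises methylcytosine, had 26.5 and 24 FPKM at week 3, against 9.70 and 10.4 FPKM at week 2 (log2 fold change 1.25, SE 0.12, adjusted p = 0.000187). Uhrf1, which maintains methylation at replication, fell with 135 and 136 FPKM at week 3, against 244 and 272 FPKM at week 2 (log2 fold change -0.92, SE 0.074, adjusted p = 0.000107). The lower calls of this list were 1 without week 2 replicate 2. Of 7 Rhox homeobox genes tested on the X chromosome 1 rose and 4 fell. Rhox10 had 19.8 and 16.5 FPKM at week 3, against 5.86 and 6.62 FPKM at week 2 (1.40), whereas Rhox2b had 1.15 and 0.886 FPKM at week 3, against 4.21 and 3.73 FPKM at week 2 (-1.30), and the Rhox2 genes are near-identical copies whose reads may be split. The lower calls of the Rhox genes were 2 without week 3 replicate 2, 2 without week 2 replicate 1 and 2 without week 2 replicate 2.

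In the TGF-beta and BMP family the change that stood out was Id1, a BMP target that blocks helix-loop-helix factors. It had 148 and 138 FPKM at week 3, against 23.2 and 26.7 FPKM at week 2 (log2 fold change 2.47, SE 0.13, adjusted p = 2.02e-05). Its relative Id2 had 5.40 and 6.49 at week 3, against 2.91 and 2.29 at week 2 (0.95), a call lost without week 3 replicate 2 (adjusted p = 0.0514) and without week 2 replicate 2 (adjusted p = 0.0624), and Id3 did not pass the test (-0.17). The receptor Acvr1 rose (1.03), and the signal transducer Smad3 had 49.4 and 43.2 FPKM at week 3, against 20.4 and 18.6 FPKM at week 2 (log2 fold change 1.21, SE 0.20, adjusted p = 0.00316). Smad6, an inhibitor that BMP signalling induces, fell with 5.04 and 5.83 FPKM at week 3, against 17.6 and 17.3 FPKM at week 2 (log2 fold change -1.52, SE 0.21, adjusted p = 0.00121). The ligands Nodal and Tgfb1 fell (-1.32 and -1.11), and Bmp4 had 1.36 and 2.2 at week 3, against 1.67 and 3.51 at week 2 and did not pass the test. Of the 25 genes tested 5 rose and 8 fell, and the higher calls numbered 3 without week 3 replicate 2 and 3 without week 2 replicate 2. Id1 averaged 15.6, 177, 24.9 and 143 FPKM at weeks 0, 1, 2 and 3 and 45.9 FPKM in GS cells. Among 21 WNT pathway genes 4 rose (19.0%) and 3 fell (14.3%), against 13.6% and 13.8% of all genes tested. Lef1, a nuclear effector, had 7.11 and 7.49 FPKM at week 3, against 2.97 and 2.91 FPKM at week 2 (1.07), and Notum, a secreted inhibitor, had 3.86 and 3.96 FPKM at week 3, against 1.10 and 1.09 FPKM at week 2 (1.23). Tcf7l1, a repressor of the pathway, had 0.432 and 0.504 FPKM at week 3, against 2.22 and 3.27 FPKM at week 2 (-1.34), and the ligand Wnt5a had 1.1 and 1.2 FPKM in the week 3 libraries, against 4.51 and 4.06 FPKM in the week 2 libraries (-1.30). The higher calls of the WNT list were 2 without week 3 replicate 1 and 2 without week 2 replicate 2.

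Acute-phase and inflammatory genes had the lowest median of all the lists. Of 26 tested 21 fell (80.8%) and 1 rose, with a median log2 fold change of -1.47, and 18 to 22 fell with any 1 library left out. Cxcl1, a neutrophil-attracting chemokine, had 6.13 and 11.9 FPKM at week 3, against 60.4 and 70.6 FPKM at week 2 (log2 fold change -2.79, SE 0.24, adjusted p = 0.000147). Cxcl5 had 3.15 and 7.36 FPKM at week 3, against 28.5 and 28.6 FPKM at week 2 (-2.32). Mmp13, a collagenase, had 2.89 and 6.06 FPKM at week 3, against 34.8 and 34.5 FPKM at week 2 (log2 fold change -2.77, SE 0.23, adjusted p = 0.000129). Saa3, an acute-phase protein, had 114 and 194 FPKM at week 3, against 473 and 479 FPKM at week 2 (-1.67), and Lcn2, an iron-binding protein of inflammation, had 5.49 and 7.42 FPKM at week 3, against 26.2 and 25.8 FPKM at week 2 (-1.87). Each had its lower week 3 value in replicate 1, and both week 3 values were below both week 2 values. Il6, the inducer of the acute phase, was 0.366 and 4.75 at week 3, against 9.23 and 10.1 at week 2 (-1.93, and from -2.96 to -0.89 with 1 library left out), and its call was lost without week 2 replicate 1 (adjusted p = 0.0817) and without week 2 replicate 2 (adjusted p = 0.0986). The single member that rose was Mmp10 (0.72), a call lost without each library other than week 3 replicate 1. Saa3 and Lcn2 were highest at week 1. Saa3 averaged 0.543, 5732, 476 and 154 FPKM at weeks 0, 1, 2 and 3 and 221 FPKM in GS cells, and Lcn2 185, 1725, 26.0 and 6.46 FPKM at weeks 0, 1, 2 and 3 and 29.3 FPKM in GS cells.

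As a sum, fibroblast markers were far below week 2 in week 3 replicate 1 only, but Lum, Col5a2 and Dcn were lower in both week 3 libraries. Dcn had 18.1 and 33.9 FPKM at week 3, against 54.3 and 48.2 FPKM at week 2. The part of fibroblasts in the fall of the inflammatory genes was not tested. Of 27 fibroblast and matrix genes tested 12 fell and 0 rose (12 and 0 at an unadjusted p under 0.05), with a median log2 fold change of -0.59. Without week 3 replicate 1 the list had 9 lower and 1 higher and a median of -0.10, and without week 3 replicate 2 it had 20 lower and a median of -1.11. Without week 2 replicate 1 there were 7 lower. The fibroblast list summed to 629.7 and 1220.0 FPKM at week 3, against 1301 and 1337 at week 2. The inflammatory list summed to 331.7 and 593 FPKM at week 3, against 1317 and 1336 at week 2. Both lists had their lowest sum in week 3 replicate 1. Without week 3 replicate 1, the median of the inflammatory list was -1.17. Lum, a matrix proteoglycan, had 3.58 and 5.35 FPKM at week 3, against 14.8 and 13.2 FPKM at week 2 (log2 fold change -1.47, SE 0.18, adjusted p = 0.000766), and Col5a2, a minor fibrillar collagen, had 5.31 and 10.4 FPKM at week 3, against 22.9 and 23.5 FPKM at week 2 (-1.51). Col1a1, the main collagen of fibroblasts, did not pass the test, with 67.2 and 111 FPKM at week 3, against 75.3 and 82.4 FPKM at week 2 (adjusted p = 0.663), and Vim had 83.1 and 156 at week 3, against 159 and 158 at week 2 (adjusted p = 0.182). Of 13 smooth muscle genes tested 4 fell and 1 rose. Smtn had 4.42 and 4.90 FPKM at week 3, against 16.3 and 19.2 FPKM at week 2 (-1.73), and Cald1 6.42 and 12.7 FPKM at week 3, against 27.9 and 27.2 FPKM at week 2 (-1.50). The lower calls of this list numbered 8 without week 3 replicate 2, and the rise of Des was lost without week 3 replicate 1 (adjusted p = 0.163) and without week 2 replicate 1 (adjusted p = 0.172).

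Other cell types of the testis contributed few tested genes. Of 26 Sertoli cell genes 10 were tested, of which 1 rose (10.0%) and 3 fell (30.0%), against 13.6% and 13.8% of all genes tested. Fshr, Defb45 and Cst9 were listed at 0 in all 4 libraries. Wt1 had 8.55 and 9.22 FPKM at week 3, against 4.56 and 4.73 FPKM at week 2 (0.81) and Clu, also made by many other cells, had 3.16 and 4.32 FPKM at week 3, against 11.6 and 11.6 FPKM at week 2 (-1.42). Of 16 Leydig cell genes 5 were tested, and Lhcgr was listed at 0. Akr1cl alone was called there, with 0.268 and 0.686 at week 3, against 1.41 and 1.85 at week 2, a call lost without week 2 replicate 2 (adjusted p = 0.0598), and the higher calls numbered 1 without week 3 replicate 1. Among 11 macrophage genes tested 1 rose (Spi1, 9.09%) and 2 fell (C1qc and Cd14, 18.2%). Each of the 3 calls was lost without week 3 replicate 1 and without either week 2 library, at adjusted p between 0.0533 and 0.169, and the pan-leukocyte marker Ptprc did not pass the filter, with 0.486 and 1.28 at week 3, against 0.450 and 0.231 at week 2. Of 8 endothelial genes tested, Erg rose, with 54.0 and 53.2 FPKM at week 3, against 23.1 and 21.3 FPKM at week 2 (1.24), and Flt1 fell with 7.30 and 8.09 at week 3, against 17.7 and 16.6 at week 2 (-1.06), the lower calls numbering 2 without week 2 replicate 2. Among the 3 lymphocyte genes tested (Lck, Cd2 and Zap70) 0 were called, and 1 was higher at an unadjusted p under 0.05, while 1 without week 3 replicate 2 was called higher. Of 13 erythroid genes Epor alone was tested, and it rose, with 1.89 and 1.65 at week 3, against 0.539 and 0.429 at week 2. The endothelial calls were 12.5% each way, near the shares of all genes tested. The endothelial markers Pecam1 (-0.36, adjusted p = 0.175) and Cdh5 (-0.22, adjusted p = 0.415) did not pass the test. Pecam1 had 1.92 and 2.29 FPKM at week 3, against 3.13 and 2.80 FPKM at week 2. Eng, Esam and Ptprb were also negative and Egfl7 positive, none of them called.

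Keratins and adhesion molecules were lower in part. Krt18, an intermediate filament of simple epithelia, had 2.73 and 2.96 FPKM at week 3, against 19.6 and 21.5 FPKM at week 2 (log2 fold change -2.49, SE 0.13, adjusted p = 2.01e-05), Krt19 had 0.902 and 2.29 FPKM at week 3, against 6.69 and 8.74 FPKM at week 2 (-1.79) and Cdh3 (P-cadherin) had 3.90 and 4.24 FPKM at week 3, against 14.3 and 13.7 FPKM at week 2 (-1.57). Of 17 keratin and epithelial genes tested 6 fell and 2 rose (Jup and Ovol2), and the same counts were found with any 1 library left out. Icam1, a ligand of leukocyte integrins, had 10.4 and 12 FPKM at week 3, against 36.2 and 34.8 FPKM at week 2 (log2 fold change -1.59, SE 0.11, adjusted p = 4.58e-05), and Vcam1 had 1.88 and 2.51 FPKM at week 3, against 8.94 and 6.88 FPKM at week 2 (-1.48). Itga9, an integrin subunit, rose with 17.1 and 17.7 FPKM at week 3, against 6.32 and 7.39 FPKM at week 2 (1.23). Of 20 adhesion genes tested 8 fell and 1 rose, and the lower calls numbered 4 without week 3 replicate 1, 5 without week 2 replicate 1 and 3 without week 2 replicate 2. Each of these genes had non-overlapping groups.

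Cd274, which encodes PD-L1, the ligand of the PD-1 checkpoint and the gene the series was built around (chr19:29367455-29388095), did not pass the test in the third week. It had 18 and 17.9 FPKM at week 3, against 17.8 and 16.5 FPKM at week 2 (log2 fold change 0.068, SE 0.10, adjusted p = 0.653). Among the 15 checkpoint ligand genes tested 2 rose (Cd276 and Icosl, 13.3%) and 5 fell (33.3%). Nectin2, a ligand of TIGIT, had 6.36 and 5.76 FPKM at week 3, against 15.6 and 14.9 FPKM at week 2 (log2 fold change -1.21, SE 0.13, adjusted p = 0.000388), and Cd24a had 6.08 and 4.95 FPKM at week 3, against 12 and 11.5 FPKM at week 2 (-0.98). The lower calls of the list were 2 without week 3 replicate 1, 3 without week 3 replicate 2, 3 without week 2 replicate 1 and 2 without week 2 replicate 2, and the higher calls 1 without week 3 replicate 1, 1 without week 3 replicate 2, 0 without week 2 replicate 1 and 1 without week 2 replicate 2. Of 26 genes of MHC class I presentation 4 rose (15.4%) and 3 fell (11.5%), shares near the 13.6% and 13.8% of all genes tested. B2m, the small invariant subunit of class I proteins, had 49.3 and 62.2 FPKM at week 3, against 86.1 and 81.7 FPKM at week 2 (-0.59), and Tapbpl, a peptide editor, had 11.5 and 11.6 FPKM at week 3, against 6.30 and 6.19 FPKM at week 2 (0.79). The higher calls of the class I list were 1 without week 3 replicate 2, 1 without week 2 replicate 1 and 2 without week 2 replicate 2, and the lower calls 1 without week 3 replicate 1 and 1 without week 2 replicate 2. Reads of the H2 genes may be split between near-identical copies. Of 32 interferon response genes 9 rose (28.1%) and 4 fell (12.5%), with a median of 0.17. Oasl2 had 42.5 and 34.2 FPKM at week 3, against 12.5 and 8.97 FPKM at week 2 (log2 fold change 1.76, SE 0.19, adjusted p = 0.000372), Gbp3 had 108 and 114 FPKM at week 3, against 45.6 and 43.7 FPKM at week 2 (1.29) and Zbp1, a sensor of nucleic acids, had 11.6 and 11.4 FPKM at week 3, against 3.43 and 2.37 FPKM at week 2 (1.69). Ifitm3, a membrane protein that restricts viruses, fell with 12.5 and 20.7 FPKM at week 3, against 41.1 and 39.1 FPKM at week 2 (-1.26), and so did Irf7 (-1.21), a call lost without week 3 replicate 1 (adjusted p = 0.0579) and without week 2 replicate 1 (adjusted p = 0.0635).

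Some genes of proliferation were lower at week 3. Of 39 DNA replication genes 14 fell and 1 rose (Chaf1b, a call lost with any 1 library left out), with a median log2 fold change of -0.27, and 10 to 13 fell with any 1 library left out. Rrm2, which makes deoxynucleotides, had 15.6 and 18.2 FPKM at week 3, against 49.0 and 45.2 FPKM at week 2 (log2 fold change -1.43, SE 0.13, adjusted p = 0.000203), Prim1 (primase) had 24.5 and 26.5 FPKM at week 3, against 49.4 and 47.3 FPKM at week 2 (-0.90) and Pcna, the sliding clamp, had 83.3 and 88.1 FPKM at week 3, against 117 and 112 FPKM at week 2 (-0.42). Of 30 mitosis genes 10 fell and 1 rose (Cdc25c), with a median of -0.18. The call of Cdc25c was lost without week 3 replicate 1 (adjusted p = 0.161), without week 2 replicate 1 (adjusted p = 0.0731) and without week 2 replicate 2 (adjusted p = 0.157). The lower calls numbered 6 without week 3 replicate 1, 6 without week 3 replicate 2, 6 without week 2 replicate 1 and 5 without week 2 replicate 2. Mki67, the proliferation marker Ki-67, had 32.4 and 34.2 FPKM at week 3, against 63.8 and 62.7 FPKM at week 2 (log2 fold change -0.90, SE 0.11, adjusted p = 0.000618), and Top2a had 122 and 143 FPKM at week 3, against 211 and 219 FPKM at week 2 (-0.70). The cyclin-dependent kinase inhibitor Cdkn1a (p21) also fell, with 25.9 and 34.7 FPKM at week 3, against 63.5 and 63.2 FPKM at week 2 (log2 fold change -1.05, SE 0.12, adjusted p = 0.000634), as did Btg2, an antiproliferative and immediate early gene, with 26.9 and 25 FPKM at week 3, against 69.8 and 68.2 FPKM at week 2 (-1.38). Of 28 p53 targets and cell cycle inhibitors 8 fell and 4 rose, and the lower calls numbered 4 without week 3 replicate 1 and 4 without week 2 replicate 1. The higher calls of that list numbered 2 without week 3 replicate 1, 2 without week 2 replicate 1 and 2 without week 2 replicate 2. Its share of higher calls, 14.3%, was near the 13.6% of all genes tested, and that of lower calls was 28.6%, against 13.8%. Sesn1 rose with 18.7 and 18.7 FPKM at week 3, against 9.84 and 9.99 FPKM at week 2 (0.85).

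Glycolysis genes rose in part. Of 25 tested 8 rose and 0 fell (11 and 2 at an unadjusted p under 0.05), with a median log2 fold change of 0.25, and 6 to 9 rose with any 1 library left out. Eno1 (enolase) had 417 and 432 FPKM at week 3, against 236 and 226 FPKM at week 2 (log2 fold change 0.87, SE 0.081, adjusted p = 0.000190), and Hk1 (hexokinase) had 32.9 and 32.7 FPKM at week 3, against 19.1 and 18.5 FPKM at week 2 (log2 fold change 0.77, SE 0.08, adjusted p = 0.000319). Ldha, which makes lactate, had 60.1 and 68.9 FPKM at week 3, against 45.2 and 48.3 FPKM at week 2 (0.45). Pfkp, a phosphofructokinase, had 23.9 and 23.2 FPKM at week 3, against 7.43 and 4.89 FPKM at week 2 (1.80), and its exons overlap Pitrm1 on the opposite strand. Gapdh did not pass the test (-0.34). Of 19 genes induced by hypoxia 8 rose and 2 fell, and the higher calls numbered 5 without week 2 replicate 1. Bnip3, a receptor of mitophagy, had 33.7 and 35.8 FPKM at week 3, against 11.7 and 9.20 FPKM at week 2 (log2 fold change 1.65, SE 0.16, adjusted p = 0.000242), and Ddit4, an inhibitor of mTORC1 also induced by ATF4, had 84.9 and 84.0 FPKM at week 3, against 38.3 and 42.3 FPKM at week 2 (log2 fold change 1.05, SE 0.091, adjusted p = 0.000139). Adm, also a hypoxia target, fell with 1.71 and 1.25 FPKM at week 3, against 7.38 and 6.42 FPKM at week 2 (-1.68). Of 34 genes of oxidative phosphorylation 1 rose (Sdha, 2.94%) and 3 fell (8.82%), shares below the 13.6% and 13.8% of all genes tested. The call of Sdha was lost without week 3 replicate 2 (adjusted p = 0.0686), without week 2 replicate 1 (adjusted p = 0.0719) and without week 2 replicate 2 (adjusted p = 0.0857), and the lower calls numbered 0 without week 3 replicate 1, 0 without week 2 replicate 1 and 1 without week 2 replicate 2.

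Lipid and redox genes were lower in part. Of 25 genes of cholesterol synthesis and uptake 11 fell and 3 rose, with a median of -0.32, and the lower calls numbered 5 without week 2 replicate 2. Msmo1, a sterol oxidase, had 81.6 and 74.4 FPKM at week 3, against 141 and 124 FPKM at week 2 (log2 fold change -0.76, SE 0.14, adjusted p = 0.00446). The higher calls of the cholesterol list numbered 1 without week 3 replicate 2, 1 without week 2 replicate 1 and 1 without week 2 replicate 2. Of 19 fatty acid genes 6 fell and 3 rose, and the higher calls numbered 1 without week 3 replicate 1, 1 without week 3 replicate 2 and 1 without week 2 replicate 1. Of the fatty acid list 15.8% rose, near the 13.6% of all genes tested, and 31.6% fell, against 13.8%. Scd2, a desaturase, had 23 and 21.3 FPKM at week 3, against 38.2 and 36.7 FPKM at week 2 (-0.73), while Acly, which makes cytosolic acetyl-CoA, rose with 448 and 436 FPKM at week 3, against 252 and 267 FPKM at week 2 (0.77). Of 24 NRF2 and glutathione genes 11 fell and 4 rose, and the lower calls numbered 6 without week 2 replicate 1 and 7 without week 2 replicate 2. The higher calls there numbered 2 without week 3 replicate 1 and 2 without week 2 replicate 2. Gsta4, a glutathione transferase, had 11 and 12.6 FPKM at week 3, against 38.6 and 34.4 FPKM at week 2 (log2 fold change -1.55, SE 0.12, adjusted p = 7.66e-05).

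Of 55 ribosomal protein genes 14 rose and 2 fell (Rpl39 and Rps27l), with a median of 0.18. The call of Rps27l was lost without week 3 replicate 2 (adjusted p = 0.0879) and without week 2 replicate 1 (adjusted p = 0.104). The higher calls numbered 9 without week 3 replicate 1, 8 without week 3 replicate 2, 2 without week 2 replicate 1 and 4 without week 2 replicate 2. Of 25 heat shock genes 9 fell and 5 rose, and the higher calls numbered 2 without week 3 replicate 1, 3 without week 3 replicate 2, 2 without week 2 replicate 1 and 1 without week 2 replicate 2. Hsp90aa1, a chaperone, had 2027 and 1612 FPKM at week 3, against 2894 and 2712 FPKM at week 2 (log2 fold change -0.63, SE 0.11, adjusted p = 0.00362), and the lower calls of that list were 4 without week 3 replicate 1 and 3 without week 2 replicate 1. Of 19 HOX cluster genes 7 fell and 0 rose (10 and 1 at an unadjusted p under 0.05), with a median of -0.35. Hoxb9 had 19.9 and 21.4 FPKM at week 3, against 49.8 and 50.8 FPKM at week 2 (log2 fold change -1.25, SE 0.12, adjusted p = 0.000267), and Hoxc9 had 3.45 and 3.46 FPKM at week 3, against 6.62 and 8.08 FPKM at week 2 (-0.90). The lower calls of the HOX list were 4 without week 3 replicate 2, 4 without week 2 replicate 1 and 3 without week 2 replicate 2. Among 22 imprinted genes 4 rose (18.2%) and 6 fell (27.3%), and the higher calls numbered 2 without week 2 replicate 2. Dio3, an enzyme that inactivates thyroid hormone, had 5.68 and 6.07 FPKM at week 3, against 0.642 and 0.950 FPKM at week 2 (log2 fold change 1.94, SE 0.20, adjusted p = 0.000319), and Igf2, a fetal growth factor, had 20.7 and 24 FPKM at week 3, against 64.8 and 64.6 FPKM at week 2 (-1.49), with exons that overlap another gene on its strand. Of 17 histone genes tested 6 rose and 7 fell, and the higher calls numbered 3 without week 3 replicate 1 and 1 without week 2 replicate 2. H1fx, a linker histone, had 25.9 and 24.2 FPKM at week 3, against 65.2 and 65.3 FPKM at week 2 (log2 fold change -1.35, SE 0.093, adjusted p = 4.68e-05). Of 12 Y-linked and X-escape genes 1 was called, Ddx3x, with 116 and 109.9 FPKM at week 3, against 148 and 153 FPKM at week 2 (-0.41), a call lost without week 2 replicate 2 (adjusted p = 0.0533), and the higher calls numbered 2 without week 3 replicate 1.

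Outside the lists, the genes with the largest changes included regulators and secreted proteins. Nos1ap, an adaptor of neuronal nitric oxide synthase, had 19.0 and 18.8 FPKM at week 3, against 1.31 and 3.32 FPKM at week 2 (log2 fold change 2.65, SE 0.27, adjusted p = 0.000279). Its exons overlap those of Gm7694, which rose as well (2.21), on the same strand. Ell3, a transcription elongation factor, had 17.7 and 17.6 FPKM at week 3, against 3.02 and 2.78 FPKM at week 2 (log2 fold change 2.26, SE 0.13, adjusted p = 2.75e-05), and its exons overlap Serinc4 on the same strand. The homeobox gene Nkx1-1 had 21 and 14 FPKM at week 3, against 3.33 and 2.80 FPKM at week 2 (2.16). Lbhd2 had 32.6 and 23.2 FPKM at week 3, against 3.85 and 3.81 FPKM at week 2 (2.56), and Dmkn (dermokine) had 8.74 and 8.55 FPKM at week 3, against 1.12 and 1.29 FPKM at week 2 (2.13). Sp7, a bone transcription factor, had 2.31 and 23.5 at week 3, against 0.556 and 0.306 at week 2, with a log2 fold change of 2.66, or 4.1 without week 3 replicate 1 and 1.22 without week 3 replicate 2, and its call was lost without week 2 replicate 1 (adjusted p = 0.0759) and without week 2 replicate 2 (adjusted p = 0.0993). Ly6g6d had 6.25 and 5.45 at week 3, against 1.26 and 0 at week 2, a call lost without week 2 replicate 2 (adjusted p = 0.0583). Among the falls, Nxph4, a secreted neurexin ligand, had 0.980 and 2.19 FPKM at week 3, against 21.1 and 22.4 FPKM at week 2 (log2 fold change -3.18, SE 0.20, adjusted p = 3.36e-05). Crmp1, a cytoskeletal protein of axons, had 1.83 and 3.58 FPKM at week 3, against 28.4 and 28.4 FPKM at week 2 (-3.03), and the homeobox gene Hlx had 1.85 and 1.64 FPKM at week 3, against 19.99 and 21.1 FPKM at week 2 (log2 fold change -2.97, SE 0.13, adjusted p = 1.58e-05). Ptx3, a soluble pentraxin, had 1.38 and 2.34 FPKM at week 3, against 19.9 and 18.9 FPKM at week 2 (-2.85). Hs3st3b1, which sulfates heparan chains, had 1.36 and 1.90 FPKM at week 3, against 17.6 and 17.4 FPKM at week 2 (-2.82), and Zfp423, a zinc finger factor that binds SMADs, had 2.56 and 1.53 FPKM at week 3, against 20.4 and 15.9 FPKM at week 2 (-2.66). Of the 5 with the highest mean FPKM (mt-Cytb, mt-Co1, Eef1a1, Rpl13a and mt-Nd1) Rpl13a alone was called, with 4671 and 4640.1 FPKM at week 3, against 3232 and 3568 FPKM at week 2 (0.46), and its call was lost with any 1 library left out, at adjusted p between 0.0563 and 0.133. Exons of Rpl13a overlap Gm45713 on the same strand.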

How the data were processed

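RNA of 10 libraries was sequenced from a stranded poly(A) kit, per the labels' protocols. The authors deposited 1 matrix of FPKM values per gene. The submitters' processing notes name the mm10 build, Cuffdiff, Cufflinks (version 2.2.1), HISAT2 (version 2.1.0), Bowtie2 (version 2.3.4.1), cutadapt (version 1.16) and bcl2fastq (version 2.17.1.14). Whether counting used strand, and which annotation, filter and normalization were applied, is not stated there.

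Each gene was fitted on log2(FPKM + 1) with limma 3.58.1 in R 4.3.3, using an intensity trend and all 10 libraries in 5 groups (5 residual degrees of freedom), after checks on simulated data. Genes needed an FPKM of 1 or more in at least 2 of the 4 libraries of weeks 3 and 2. FPKM are not counts, so no count test was run. Exact multiples of 1 read were sought in low values of 2268 genes, with an assumed fragment length of 200 bases. Each library had 286 to 490 such values. Of these, 95.92% to 99.39% per library came out whole within 0.15 at the depths stated, which were picked by that fit. Gene names and positions came from GENCODE M21 and promoter windows from RefSeq GRCm38.p6. Of 21969 row IDs 21951 matched GENCODE M21.

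Members and gene lists were chosen with earlier results of these data known. Genes were named by rule: the 12 largest called changes each way with groups that do not overlap, up to 4 called members per list, Cd274, cell type markers, the genes at the edge of the filter and the 5 most abundant. Other genes named, such as Asns, Fos, Spry4, Neurog3 and Saa3, were chosen after their values were seen. Alternatives were other pseudocounts (0.1 and 0.5), filters, scalings and sets of libraries, no trend, a replicate block and each library left out.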

Additional observations from a re-analysis of the deposited data

How the results depend on the processing

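Calls numbered 1737 higher and 1761 lower at week 3. With 1 library left out they ranged from 860 to 1139 higher and from 911 to 1387 lower, and the changes of at least 2-fold from 291 to 362 higher and from 348 to 522 lower. At a pseudocount of 0.1 the at least 2-fold falls numbered 640 in place of 398, and the cause was not tested. Both counts of all calls stayed within 1.5 times the main ones in the other alternatives, with 1428 to 1850 higher and 1412 to 1925 lower. Replicate numbers are shared between the weeks, and deviations of same-numbered libraries of weeks 3 and 2 correlated at -0.03. No pairing was seen, but with 2 libraries a group this cannot exclude a shared animal, day or culture. A replicate block gave 1653 higher and 1707 lower. Cd274 was not called under any alternative. Of 236 named genes called, 59 lost the call in at least 1 of 16 alternatives, each of these without 1 library and 29 also in another, and 0 changed sign. Among those 29, Il6 (adjusted p = 0.0839), Sp7 (adjusted p = 0.0846) and Spred1 (adjusted p = 0.0685) lost their calls with only weeks 2 and 3 fitted. Rpl13a lost its call under quantile normalization (adjusted p = 0.305). None of the 16 lists with a median of at least 0.3 in size changed the sign of its median. With 2 libraries a group the spread of each gene is poorly known. Across weeks 2 and 3, FPKM 1 stood for 26.8 to 37.8 reads on a transcript of 2200 nucleotides, and fewer on a shorter one. A filter at FPKM 5 left no erythroid gene to test.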
